A study of Mus musculus with 28 samples.

Results

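Autophagy delivers parts of the cytoplasm to the lysosome. The ULK kinase complex and the class III phosphatidylinositol 3-kinase (PI3K) complex start the membrane, linked conjugation systems attach the small proteins of the Atg8 family (LC3 and GABARAP) to it, and receptors that bind both the cargo and Atg8 proteins choose what is taken up. In lymphoma cells under DNA damage the pathway is known both as a source of metabolites and as a route for clearing damaged proteins. The genes described here are 38 listed members of this machinery, chosen by name. Of these, 36 were measured, among 18193 genes on the array, each by the brightest probe set (the array's unit of measurement for a transcript) that is annotated to that gene alone. Optn was not analysed here, and Bnip3l was set aside because its probe sets are annotated to more than 1 gene.

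Expression was measured on 28 arrays from 14 primary lymphomas of C57BL/6 mice carrying the Emu-myc transgene, in which the immunoglobulin heavy-chain enhancer drives Myc in B cells. The cells came from lymph nodes, had been transduced with MSCVpuro Bcl2, which blocks apoptosis, were selected with puromycin and were grown on gamma-irradiated NIH 3T3 fibroblasts, and both groups share all of this. Each lymphoma gave 1 untreated culture and 1 culture kept for 5 days with Adriamycin (ADR) at 0.05 µg/ml, the anthracycline doxorubicin, which traps topoisomerase on DNA and causes strand breaks. No age of the mice and no sort that parts lymphoma cells from feeder cells is given in the sources used here. Values are log2 expression values, a change is ADR minus untreated in the same lymphoma with its standard error (SE) from limma, and "rose" or "fell" means a Benjamini-Hochberg adjusted p under 0.05 over all genes (n = 14 pairs throughout).

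Several facts of the cultures and arrays stand beside the changes below. Cd79a, part of the B-cell receptor, was at 9.96 to 11.86 in the untreated cultures, whereas Pax5, a B-cell transcription factor, was at 5.27 to 5.94. Of 8 B-cell markers 5 fell (median change -0.64), of 17 fibroblast markers 16 rose (median 1.98), and of 13 macrophage markers 8 rose (median 1.48), while 0 of 6 T-cell and 2 of 7 granulocyte markers rose. The mean level of the fibroblast list was 4.52 to 5.32 in untreated and 4.97 to 9.01 in ADR cultures, and that of the macrophage list 4.79 to 8.05 and 5.67 to 9.13. Col1a2, a fibroblast collagen chain, changed by between 0.38 (lymphoma 1467) and 6.31 (lymphoma 403). Among the other defining markers, the highest change of Col1a1 was 5.70 and that of Col3a1 was 4.16, Adgre1 was higher in 14 of 14 lymphomas and Csf1r in 13, and the median of C1qa was 3.87 untreated and 3.89 with ADR. The ADR array of lymphoma 1570 stood apart in RNA quality, with a 3′ minus 5′ signal of 0.92 for Gapdh, where the other 27 arrays lay between -0.11 and 0.38, and of 0.92 for actin, where they lay between 0.09 and 0.76. In lymphoma 9584 the Y-linked gene Eif2s3y went from 4.74 to 8.61 between the paired cultures while Kdm5d, also Y-linked, was at 7.17 and 7.20. The counts of calls over the 36 genes and of slopes on Col1a2 are therefore also given without lymphomas 1570 and 9584.

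Across the machinery, rises outnumbered falls. Of the 36 genes, 20 rose, 2 fell and 14 did not pass the threshold, where 15.3% of all genes rose and 13.4% fell. The median change of the 36 was 0.26, and that of all genes was -0.001. Without lymphomas 1570 and 9584, 17 rose and 2 fell, against 2582 and 2334 of all genes. Ulk2, Wipi2 and Tax1bp1 lost their calls. In that fit 2 of 4 ULK complex genes, 2 of 5 membrane supply genes and 3 of 5 ubiquitin-linked receptors rose. The counts of the other roles were the same. When every array was centred on its own median, which moved the balance of calls over all genes from 2790 higher and 2435 lower to 2007 higher and 4207 lower, 13 of the 36 rose and 3 fell. Without a term for the lymphoma, 13 rose and 0 fell, against 1933 and 1723 of all genes. The arrays measure RNA from whole cultures, so fewer cells of a type and less RNA per cell cannot be told apart in any of these changes.

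**Figure D1:**
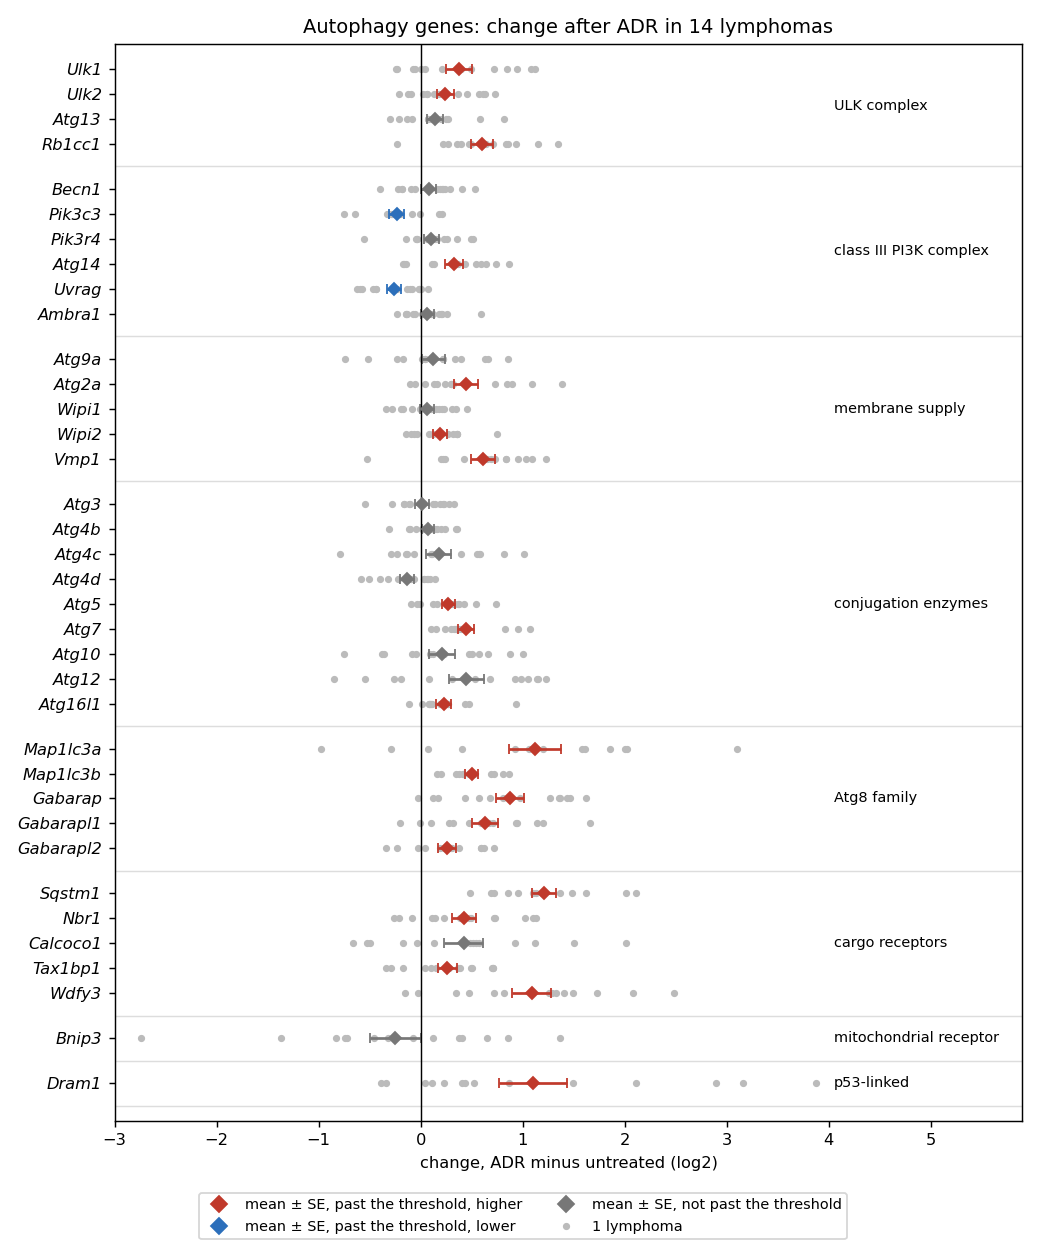
Change (log2, ADR minus untreated) of 36 autophagy genes grouped by role; small points are single lymphomas (n = 14) and diamonds are means with SE, coloured by whether the gene passed the threshold. The means of all 5 Atg8 family genes lie to the right of 0, while the class III PI3K complex holds both genes that fell.

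In the Atg8 family 5 of 5 members rose, with a median change of 0.63. Map1lc3b, which encodes LC3B, the form most used to mark autophagosomes, was at 10.37, 10.76 and 11.06 (lowest, median, highest) in untreated cultures and at 11.08, 11.23 and 11.46 with ADR. Every ADR culture lay above every untreated culture. No other of the 36 genes separated the groups in this way, and 0.0605% of all genes did so in this direction. The change of Map1lc3b was 0.50 ± 0.06, a 1.41-fold rise seen in 14 of 14 lymphomas (adjusted p = 2.19e-05), the smallest in 1467 (0.16) and the largest in 403 (0.86). Of its 4 probe sets 3 rose, and the remaining one, at a mean level of 4.81, changed by -0.21 without passing the threshold.

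Map1lc3a, which encodes LC3A, had the largest mean change of the family and the widest spread. It was at 6.33, 7.39 and 8.68 untreated and at 7.35, 8.09 and 10.39 with ADR. The groups overlapped over several lymphomas. Lymphoma 1467 had the highest untreated value and went down to 7.71 with ADR, untreated 5560 was at 8.17, and the lowest ADR value was that of 5043. The change was 1.12 ± 0.26 (adjusted p = 0.00366), higher in 12 of 14 lymphomas, with -0.97 in 1467 and 3.10 in 403 at the ends. Both of its probe sets rose. Gabarap, the founding member of the GABARAP branch, was at 9.70, 10.25 and 10.73 untreated and at 10.51, 11.18 and 11.99 with ADR, and its change was 0.88 ± 0.14 (adjusted p = 2.06e-04). It was higher in 13 of 14 lymphomas and flat in 1467 (-0.02). Gabarapl1 changed by 0.63 ± 0.13 (adjusted p = 0.00163), and its lowest ADR value of 9.14 came from lymphoma 3769, whose untreated value of 7.48 was the lowest of all and whose change of 1.66 was the largest. Gabarapl2 changed by 0.26 ± 0.08 (adjusted p = 0.029), the smallest change of the family, and its call was lost on leaving out any 1 of 5 lymphomas and with arrays centred on their median. The second probe set of Gabarapl2, at a mean level of 4.55, changed by -0.12 and did not pass the threshold.

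**Figure D2:**
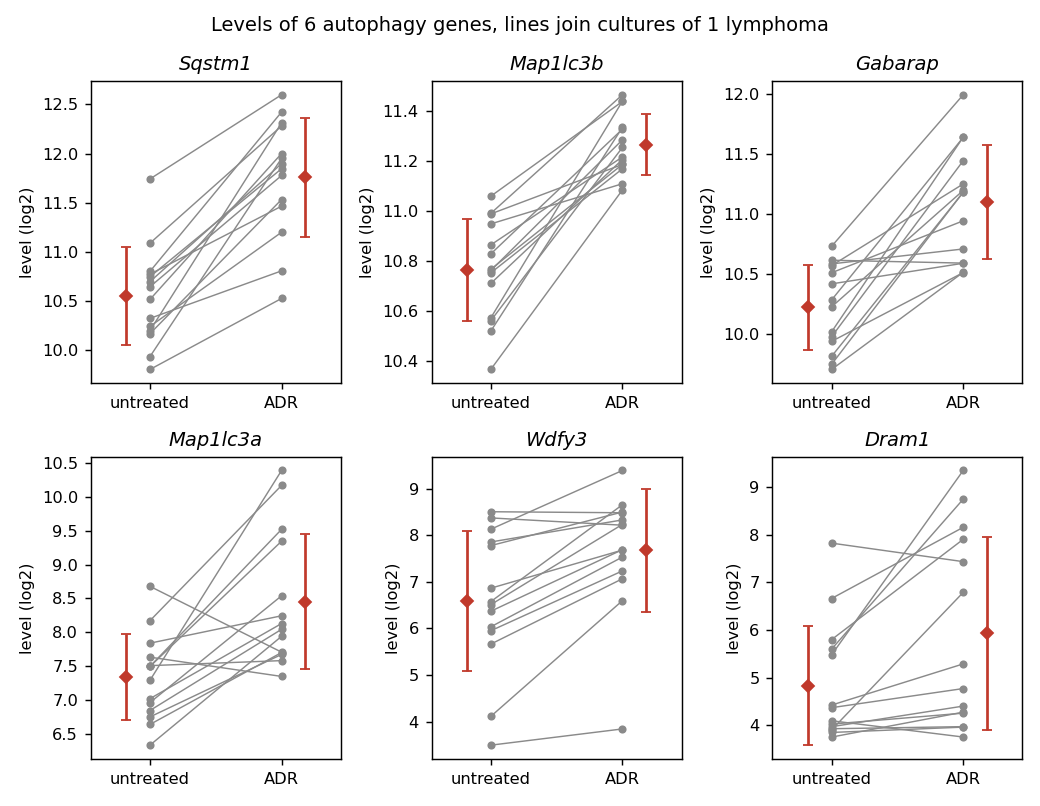
Log2 level of 6 autophagy genes in untreated and ADR cultures; each line joins both cultures of 1 lymphoma, and diamonds with bars are the mean and SD of each group (n = 14). Map1lc3b ranges from 10.37 to 11.06 untreated and from 11.08 to 11.46 with ADR, and the other 5 genes overlap between groups.

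Among the receptors, 4 of 6 measured genes rose (median change 0.42) and 0 fell. Sqstm1 encodes p62, a receptor that links ubiquitinated cargo to LC3 and is itself degraded by autophagy. Its levels were 9.81, 10.58 and 11.74 untreated and 10.53, 11.87 and 12.60 with ADR. The groups overlapped through the lowest ADR cultures, those of 1570 (10.53) and 1467 (10.81), and through the highest untreated culture, that of 5560. Sqstm1 rose by 1.21 ± 0.12 (2.31-fold, adjusted p = 5.63e-06), the largest mean change of the 36 genes, and was higher in 14 of 14 lymphomas, from 0.48 in 1467 to 2.11 in 403. Its second probe set rose as well, by 0.55.

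Wdfy3 encodes ALFY, a large scaffold that brings p62-bound aggregates to the forming membrane. It was at 3.49, 6.54 and 8.51 untreated and at 3.84, 7.96 and 9.39 with ADR, and the groups overlapped over most of this range. Its lowest values in both groups came from 1467. The change was 1.09 ± 0.19 (adjusted p = 4.11e-04), higher in 12 of 14 lymphomas, largest in 1570 (2.49) and slightly below 0 in 403 (-0.16) and 7050 (-0.02). Of its 5 probe sets 2 rose, and the changes ran from -0.06 to 1.09. Nbr1, a p62-related receptor, rose by 0.43 ± 0.12 (adjusted p = 0.0122) and Tax1bp1, a receptor that also acts downstream of ubiquitin, by 0.26 ± 0.09 (adjusted p = 0.0464). The call of Tax1bp1 was lost on leaving out any 1 of 10 lymphomas, among them 1570. Of the 4 probe sets of Tax1bp1 2 rose. The second probe set of Nbr1 changed by 0.17 and did not pass. Calcoco1, a receptor for the endoplasmic reticulum and Golgi, changed by 0.42 ± 0.19 and did not pass (adjusted p = 0.122), with 2.01 in 1570 and -0.67 in 2949.

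Bnip3, a hypoxia-induced receptor on the outer mitochondrial membrane, had no common direction. It was at 9.26, 11.03 and 12.48 untreated and at 7.61, 10.61 and 12.86 with ADR. The mean change was -0.25 ± 0.25 (adjusted p = 0.53), with 6 lymphomas higher and 8 lower. The ends were -2.74 in 1570, the array with the high 3′ to 5′ signal, and 1.36 in 5560. Without 1570 and 9584 the Bnip3 change was 0.05 (adjusted p = 0.873).

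Initiation showed a mixed picture: of 10 genes 4 rose, 2 fell and 4 did not pass, with a median change of 0.12. In the ULK complex, Rb1cc1, which encodes the scaffold FIP200, rose by 0.60 ± 0.10 (adjusted p = 4.17e-04). Its levels were 5.72, 7.14 and 7.44 untreated and 6.91, 7.68 and 8.08 with ADR, the lowest untreated value and the largest change (1.34) both being those of 1467, and 7050 alone was lower (-0.24). Only 1 of its 3 probe sets passed. The others changed by 0.27 (mean level 6.19) and -0.10 (mean level 2.76). The kinase genes Ulk1 and Ulk2 rose by 0.38 ± 0.12 and 0.24 ± 0.08 (adjusted p = 0.0314 and 0.037). Both calls were lost on leaving out any 1 of 7 lymphomas, and both genes changed most in 1570, by 1.13 and 0.73. The second probe set of Ulk1 changed by 0.13 and did not pass, and 2 of the 4 probe sets of Ulk2 rose. Atg13, the adaptor of the complex, changed by 0.14 ± 0.08 and did not pass (adjusted p = 0.224).

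The class III PI3K complex held both genes that fell. Pik3c3, the catalytic subunit VPS34, was at 7.35, 7.82 and 8.10 untreated and at 7.06, 7.65 and 7.92 with ADR. The groups overlapped widely, with 12 of 14 lymphomas lower and a change of -0.23 ± 0.07 (adjusted p = 0.0235). Uvrag, the subunit that directs the complex to endosomes and autophagosome maturation, changed by -0.26 ± 0.07 (adjusted p = 0.0102) and was also lower in 12 of 14. Atg14, the subunit that directs the same kinase to autophagosome formation, rose by 0.33 ± 0.09 (adjusted p = 0.00971) in 11 of 14 lymphomas. Becn1 (0.08 ± 0.07), the scaffold of both forms of the complex, Pik3r4 (0.11 ± 0.07), its regulatory subunit, and Ambra1 (0.07 ± 0.06), an activator of Becn1, did not pass the threshold. Pik3c3, Uvrag and Atg14 were each measured by 1 probe set.

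Of the 5 genes for membrane supply and for proteins that bind the lipid made by the kinase, 3 rose. Vmp1, a lipid scramblase of the endoplasmic reticulum, was at 9.80, 10.41 and 11.18 untreated and at 10.66, 11.03 and 11.29 with ADR. It rose by 0.61 ± 0.12 (adjusted p = 9.11e-04), and 13 of 14 lymphomas were higher, the exception being 2949 (-0.52). The second probe set of Vmp1 changed by 0.18 and did not pass. The lipid-transfer gene Atg2a rose by 0.45 ± 0.12 (adjusted p = 0.00812) and changed most in 1570 (1.39). Wipi2, which recruits the conjugation machinery, rose by 0.19 ± 0.07 (adjusted p = 0.0448), a call lost on leaving out any 1 of 10 lymphomas. Of the 3 probe sets of Wipi2 1 rose, and the others changed by 0.07 and -0.16 without passing. Atg9a (0.13 ± 0.11), which encodes the scramblase of the seed vesicles, and Wipi1 (0.06 ± 0.07) did not pass, although 2 of the 6 probe sets of Wipi1 rose.

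Of the enzymes that conjugate the Atg8 proteins to lipid, 3 of 9 rose, 0 fell and the median change was 0.21. Atg7, the E1-like enzyme that activates both Atg8 proteins and Atg12, was at 6.73, 7.27 and 8.12 untreated and at 6.97, 7.80 and 8.27 with ADR. The groups overlapped but each lymphoma was higher with ADR, by 0.11 in 6054 to 1.07 in 3594, and the mean change was 0.45 ± 0.08 (adjusted p = 4.29e-04). Atg7, Map1lc3b and Sqstm1 were the 3 of 36 genes higher in 14 of 14 lymphomas, where 2.87% of all genes were, and 0 were lower in 14 of 14, where 2.59% of all genes were. Atg5 and Atg16l1, whose products form the complex that places Atg8 proteins on the membrane, rose by 0.27 ± 0.06 and 0.23 ± 0.07 (adjusted p = 0.00438 and 0.0242). Their partner Atg12 changed by 0.45 ± 0.17, which did not pass (adjusted p = 0.0627), with -0.85 in 2949 and 1.23 in 2581. Of the 3 probe sets of Atg5 1 rose, and the others changed by 0.18 and 0.19 without passing. Of the 2 probe sets of Atg16l1 1 rose. The E2-like enzymes Atg3 (0.01 ± 0.07) and Atg10 (0.21 ± 0.13) and the Atg8 proteases Atg4b (0.07 ± 0.06), Atg4c (0.18 ± 0.12) and Atg4d (-0.13 ± 0.07) did not pass. Dram1, a p53 target that encodes a lysosomal membrane protein, rose by 1.10 ± 0.34 (adjusted p = 0.0212) with a split between lymphomas. Its levels were 3.75, 4.23 and 7.83 untreated and 3.75, 5.03 and 9.36 with ADR. The change was 3.88 in 3594, 3.16 in 3769 and 2.89 in 2581, under 1 in 9 lymphomas, and below 0 in 2949 (-0.34) and 9584 (-0.39).

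Set beside each other within each lymphoma, the roles ordered as follows, as a description of the listed genes. The mean change of the 6 receptors was above that of the 9 conjugation enzymes in 12 of 14 lymphomas (difference 0.33 ± 0.32, SD) and above that of the 10 initiation genes in 13 (0.38 ± 0.33). The 5 Atg8 genes were above the conjugation enzymes in 13 of 14 lymphomas (0.49 ± 0.38). Initiation and conjugation had no common order, initiation being above in 6 of 14 (-0.05 ± 0.19). This order belongs to the changes as measured. By medians, the changes were 0.42 for the receptors, 0.63 for the Atg8 family, 0.21 for the conjugation enzymes and 0.12 for initiation. A fit with the Col1a2 change as a term is described further on. Its median fitted values at no Col1a2 change were -0.07, 0.05, 0.24 and 0.10 in the same sequence. These are medians, where the order above is of means, and the receptor values ran widely, from -1.19 (Bnip3) to 1.49 (Wdfy3). The mean change of all 36 genes was above 0 in 14 of 14 lymphomas, from 0.02 in 1467 to 0.60 in 403. Lymphoma 1467 was the one in which the Atg8 mean (-0.17) and the receptor mean (-0.16) were below 0. In 1570 the ULK complex had its highest mean change (0.88), and 10 of the 36 genes had their largest change there. With 1570 left out, 16 of the 36 genes rose and 2 fell, against 2654 and 2399 of all genes. Ulk1, Ulk2, Wipi2 and Tax1bp1 lost their calls there.

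**Figure D3:**
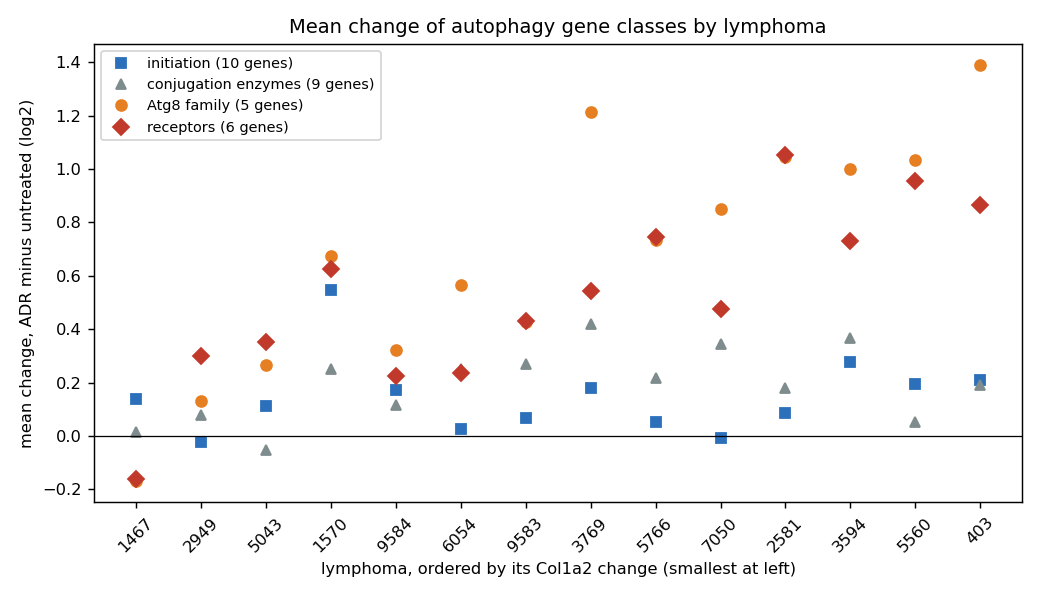
Mean change (log2, ADR minus untreated) of 4 classes of autophagy genes in each of 14 lymphomas, ordered by the Col1a2 change of the lymphoma. The Atg8 and receptor means run from -0.17 and -0.16 in 1467 up to 1.39 (403) and 1.05 (2581), while the conjugation mean stays between -0.05 and 0.42.

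Genes of the pathway outside the 36, taken from lists by role, gave these counts. Of 18 further autophagy genes 5 rose and 1 fell (median 0.15). The largest changes were those of Trp53inp2 (1.34 ± 0.23), a nuclear partner of LC3, Trp53inp1 (0.51 ± 0.15), its p53-induced relative, and Sh3glb1 (0.51 ± 0.12), and Atg16l2, a paralog of Atg16l1, fell (-0.77 ± 0.15). Of 14 further cargo receptors 5 rose and 1 fell (median 0.19), with Tex264, a receptor for the endoplasmic reticulum, at 0.65 ± 0.10, Tollip at 0.32 ± 0.10, Tbk1, the kinase that phosphorylates several receptors, at 0.29 ± 0.09, and Phb2, an inner-membrane receptor of mitochondria, at -0.30 ± 0.10. Among 15 genes for fusion of autophagosomes with lysosomes, 10 rose and 1 fell (median 0.45), led by Lamp1 (1.04 ± 0.09), Vps33a (0.72 ± 0.10) and Plekhm1 (0.63 ± 0.11), with Vps16 at -0.21 ± 0.06. Of 28 genes for upstream control by mTORC1, AMPK and the TFEB family, 12 rose and 0 fell (median 0.12), with the largest changes in Rragc (0.86 ± 0.08), a Rag GTPase, Mitf (0.81 ± 0.19) and Sesn2 (0.68 ± 0.13).

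The transcription factors of the TFEB family bind the E-box CACGTG, the core of the element shared by many lysosomal and autophagy genes, and Myc binds the same letters. Promoter windows from RefSeq (GRCm38.p6, 250 bases before to 50 after the gene's start) were matched for 29 of the 36 genes by symbol. CACGTG, which reads the same on both strands, was found in 5 of these 29 (17.2%) and in 10.2% of all tested genes with a window. The 5 were Atg7, Atg14 and Atg5, which rose, and Atg3 and Bnip3, which did not pass. The motif began 132 bases before the start in Atg7, 14 before it in Atg5 and at 94 and 71 bases before it in Atg3. The longer form TCACGTGA, which contains CACGTG, was found in 1 of the 29 (Atg3) and in 1.63% of genes. TGACNNNGC, the letters of the antioxidant response element, searched on both strands, was found in 5 of 29 (17.2%) and in 16.2% of genes, and TGANTCA, the AP-1 letters, in 0 of 29 and 7.54%. The windows of Sqstm1 and Map1lc3b held no CACGTG. A match is a description of the letters and not a test of binding. The 150 bases before the start are shown 5′ to 3′ on the gene's strand for Sqstm1, the gene with the largest mean rise, for Atg7 and Atg5, which rose, and for Atg3, which did not pass but holds 2 copies. Capitals mark CACGTG. The stretches are chr11:50210821-50210970 (minus strand), chr6:114670946-114671095 (plus), chr10:44268189-44268338 (plus) and chr16:45158679-45158828 (plus).
Sqstm1: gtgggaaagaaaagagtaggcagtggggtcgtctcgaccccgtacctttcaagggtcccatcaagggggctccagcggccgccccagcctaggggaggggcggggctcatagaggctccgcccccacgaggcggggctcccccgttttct
Atg7: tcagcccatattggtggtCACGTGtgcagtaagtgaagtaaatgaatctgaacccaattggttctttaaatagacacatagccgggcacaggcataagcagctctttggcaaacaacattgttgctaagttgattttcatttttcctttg
Atg5: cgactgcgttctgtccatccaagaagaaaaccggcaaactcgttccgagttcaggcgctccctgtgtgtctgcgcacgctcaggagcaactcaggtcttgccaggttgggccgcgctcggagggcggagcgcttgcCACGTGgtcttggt
Atg3: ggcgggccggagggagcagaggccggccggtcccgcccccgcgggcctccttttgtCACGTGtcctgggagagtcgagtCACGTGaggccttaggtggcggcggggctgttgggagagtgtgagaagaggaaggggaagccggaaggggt

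The change of Col1a2 served as the measure against which the changes of the autophagy genes were set. In a limma fit over the 14 changes, 8 of the 36 genes had a positive slope on the Col1a2 change past the threshold and 1 a negative slope, where 8.58% and 8.27% of all genes did. The genes with a positive slope, given as log2 units per log2 unit of Col1a2, were Dram1 (0.48 ± 0.14), Map1lc3a (0.46 ± 0.08), Atg12 (0.24 ± 0.07), Gabarap (0.24 ± 0.04), Gabarapl1 (0.20 ± 0.05), Atg4c (0.17 ± 0.05), Nbr1 (0.16 ± 0.05) and Atg14 (0.12 ± 0.04), and Pik3c3 had the negative one (-0.10 ± 0.03). Without lymphomas 1570 and 9584, 9 slopes were positive and 1 negative, against 8.9% and 8.64% of all genes. Counted in either direction, the excess over all genes was not present on leaving out 1467 or 2949. Slopes in either direction passed for 9 of the 36 (25.0%) and for 16.8% of all genes, but without 1467 for 5 (13.9%) against 13.6%, and without 2949 for 5 (13.9%) against 14.7%. By direction the positive slopes were few, and their share was not tested against that of all genes. Without 1467, 4 of the 36 were positive, against 7.2% of all genes, and 1 was negative, against 6.45%. Without 2949, 5 were positive, against 7.58%, and 0 negative, against 7.09%. Within the 11 lymphomas that the labels describe as reanalysed from an earlier series, 3 of the 36 (8.33%) passed, against 12.8% of all genes.

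As correlations over the 14 lymphomas, 4 positive and 1 negative relation passed after adjustment over 18192 genes (permutation p, 100000 permutations), against 7.6% positive and 7.65% negative among all genes. Gabarap followed Col1a2 most closely among the 36 (Pearson r = 0.85, adjusted permutation p = 0.005; Spearman rho = 0.83, adjusted p = 0.009), and r was 0.89 without 403 and 5560, the lymphomas farthest from the median Col1a2 change, and 0.83 within the 11. Map1lc3a had r = 0.84 (adjusted permutation p = 0.004; rho = 0.79, adjusted p = 0.018), 0.77 without those lymphomas and 0.82 within the 11. Gabarapl1 had r = 0.75 (adjusted permutation p = 0.02; rho = 0.80, adjusted p = 0.015), 0.75 without them and 0.70 within the 11. Atg14 had r = 0.71 (adjusted permutation p = 0.039; rho = 0.76, adjusted p = 0.027), 0.61 without them and 0.71 within the 11. Pik3c3 ran the other way at r = -0.77 (adjusted permutation p = 0.013; rho = -0.76, adjusted p = 0.029), -0.75 without them and -0.77 within the 11. The median r of the 36 genes was 0.40, and that of all genes was -0.07. In untreated cultures 0 of the 36 genes, and 0 of all genes, had a level that passed against the Col1a2 level by the adjusted permutation test, and at an unadjusted p under 0.05 1 of the 36 did by Pearson r, against 8.14% of all genes, and 8 did by Spearman rho, against 15.1%.

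**Figure D4:**
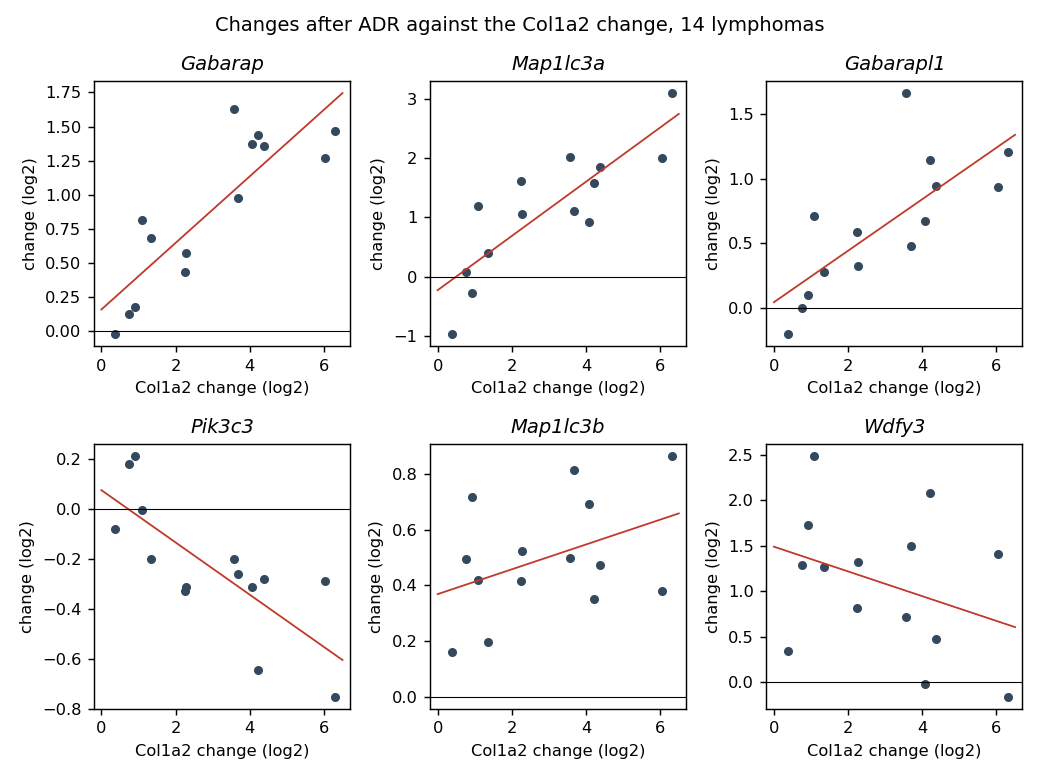
Change of 6 autophagy genes (log2) against the change of Col1a2 (log2) in 14 lymphomas, with the fitted line of the limma model. Gabarap (r = 0.85), Map1lc3a (0.84) and Gabarapl1 (0.75) go up with Col1a2 and Pik3c3 goes down (-0.77), while Map1lc3b stays above 0 in all 14 lymphomas.

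The fitted value at no Col1a2 change is the change read off this line where Col1a2 is unchanged, below the smallest measured Col1a2 change of 0.38. There, 4 of the 36 genes were higher and 0 lower past the threshold, against 5.61% and 4.58% of all genes. They were Wdfy3 (1.49 ± 0.34, adjusted p = 0.011), Sqstm1 (0.79 ± 0.19, adjusted p = 0.0157), Rb1cc1 (0.69 ± 0.20, adjusted p = 0.0346) and Map1lc3b (0.37 ± 0.11, adjusted p = 0.043). None of these 4 had a slope past the threshold over all lymphomas. There, r with the Col1a2 change was 0.58 for Sqstm1 (adjusted permutation p = 0.123), 0.41 for Map1lc3b, -0.15 for Rb1cc1 and -0.34 for Wdfy3. Without lymphomas 403 and 5560, r was 0.68 for Sqstm1, 0.37 for Map1lc3b, -0.69 for Rb1cc1 and -0.24 for Wdfy3. No permutation p was computed for r without those lymphomas. Within the Atg8 family the fitted values differed in sign: Gabarap was at 0.16 ± 0.15, Gabarapl1 at 0.04 ± 0.17 and Map1lc3a at -0.23 ± 0.27, and none of these 3 passed. Dram1 was at -0.30 ± 0.47 and Bnip3 at -1.19 ± 0.38 (adjusted p = 0.0611), neither past the threshold.

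**Figure D5:**
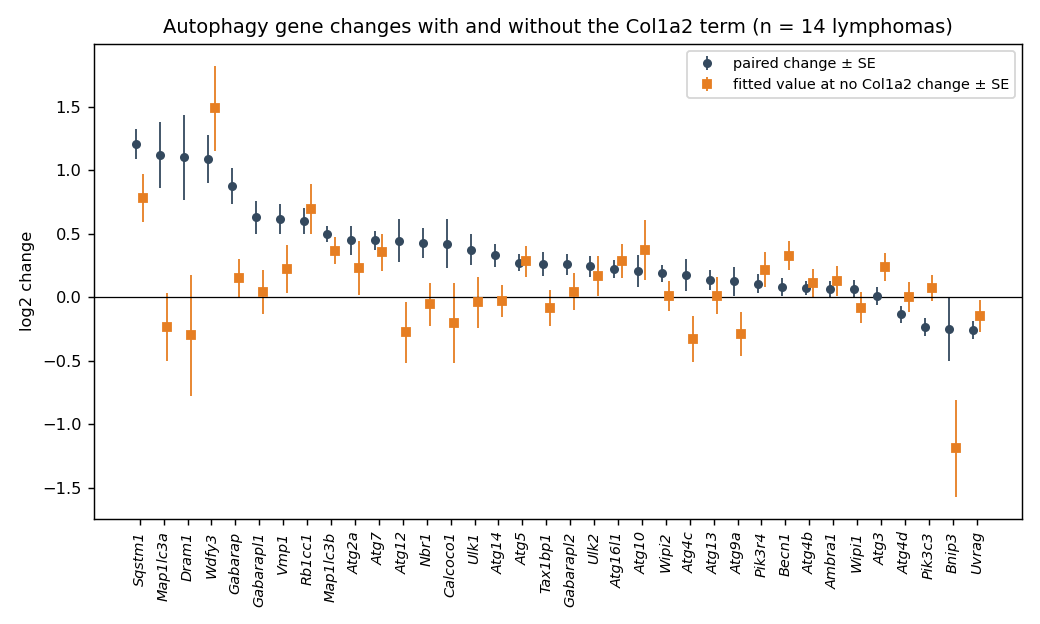
Paired change (circles) and fitted value at no Col1a2 change (squares) of 36 autophagy genes, log2, each with its SE (n = 14 lymphomas). Map1lc3a goes from 1.12 to -0.23, whereas Sqstm1, Wdfy3, Rb1cc1 and Map1lc3b are higher past the threshold in both.

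The macrophage list also moved with treatment, its mean change running from 0.39 (2949) to 3.04 (2581). At no macrophage change, 2 of the 36 genes were higher past the threshold, against 0.418% of all genes, and 0 were lower, against 0.396%. These were Sqstm1 (1.25, adjusted p = 0.0451) and Map1lc3b (0.59, adjusted p = 0.0498). The median fitted value of the 36 was 0.24, against a median change of 0.26 in the paired fit. The SEs were larger, at 0.30 against 0.14 for Gabarap, and the value is read off below the smallest mean macrophage change. No slope of the 36 genes on the macrophage change passed, and 0.011% of all genes had a positive slope that did. Rb1cc1 was at 0.67 (adjusted p = 0.166) and Wdfy3 at 0.58 (adjusted p = 0.495) in that fit, and Dram1 at -0.02. With both terms in the limma fit, 0 of the 36 passed in either direction, where 46 of 18192 genes were higher and 26 lower. At an unadjusted p under 0.05 5 of the 36 were higher and 2 lower, and 15.4% of all genes reached it. Between the 11 lymphomas of the earlier series and the other 3, 0 of the 36 changes differed past the threshold in limma, where 0.0055% of all genes did, and 1 did at an unadjusted p under 0.05, which 5.49% of all genes reached. On simulated data this comparison recovered 7.46% of differences of 0.5 and 44.8% of differences of 1, so it could miss differences of that size.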

How the data were processed

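Affymetrix arrays were read from 28 cultures, 1 untreated and 1 ADR culture of each of 14 lymphomas. The deposited values are log2 expression values of 45101 probe sets per array, made with RMA and Partek 6.5 per the submitters' processing notes. No genome build is named in the sources used here. Of the probe sets, 34945 had 1 gene in the array annotation, 932 had several, 9160 had none listed and 64 were controls, and the last 3 kinds were left out. The brightest probe set over all arrays stood for each of 18193 genes.

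The paired fit used limma 3.58.1 (R 4.3.3), each lymphoma being a block of its own, slopes and fitted values with limma on the 14 per-lymphoma changes, all adjusted by Benjamini-Hochberg over all genes. The pairing comes from the labels: in their deviations from the group means, both arrays of a lymphoma had an r between 0.27 and 0.61, against a median of -0.08 for other pairs. The partner was the best match for 12 of the 14 lymphomas. The labels do not say whether a culture was repeated, and each lymphoma is 1 replicate. On simulated data with 18193 genes, 67, 67 and 66 genes were given changes of 0.5, 1 and 2. The paired fit recovered 70.1%, 97.0% and 98.5% of these, with 7.33% false among 191 calls. In the data 5225 genes passed, so the adjusted threshold was stricter in the simulation, and these shares do not carry over directly.

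The 38 genes and all lists were chosen with earlier results of these data known. Named were all measured genes of the list, Col1a2, up to 3 genes per further list with the largest rise and fall past the threshold, and the defining markers Col1a1, Col3a1, Csf1r, C1qa, Adgre1, Cd79a, Pax5, Cd3e and Elane; Ly6g was not analysed here. Cd3e (T cells) was at 5.31 to 6.12 and Elane (granulocytes) at 4.13 to 4.85 in ADR cultures. The Y-linked genes were named after their values were seen, as a check of the pairs. Promoter windows, from RefSeq (GRCm38.p6), were given for 30 of the 38 genes. Alternatives covered the block, the probe set, a floor on dim genes, centring, the test, the covariates and the lymphomas left out. The fits without 1570 and 9584 and with both covariates were chosen after seeing the data. Figures were drawn with matplotlib 3.10.9.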

Additional observations from a re-analysis of the deposited data

How the results depend on the processing

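In the main fit 20 of the 36 genes were higher and 2 lower, against 2790 and 2435 of all 18193 genes. Counts for all genes follow in brackets. Without the replicate block 13 and 0 passed (1933 and 1723). With the probe set of largest variance 11 were higher (2631), and with arrays centred on their median 13 (2007). At no Col1a2 change 4 and 0 passed (1021 and 833), at no macrophage change 2 and 0 (76 and 72). With both terms 0 and 0 passed (46 and 26), and without lymphomas 403 and 5560 13 and 1 (2457 and 2031). Within the other 3 lymphomas, where fewer samples enter the fit, 0 and 0 passed (1 and 0). A random replicate block gave 19 higher (2750), the mean of probe sets 14 (2574) and a floor of 5 on the mean log2 value 21 (2441 of 10837). Moderation with trend and robust gave 17 (2737), the exact sign-flip test 17 (2704) and the 11 lymphomas of the earlier series 18 (2534). Leaving out 1 lymphoma gave 15 to 20 higher (2419 to 2862) and 2 lower throughout (2082 to 2572). Of 22 calls 16 held in all 14 such fits, and those of Ulk1, Ulk2, Wipi2, Atg16l1, Gabarapl2 and Tax1bp1 were lost in at least 1. Leaving the replicate block out changed the call of 9 of the 36 genes. The 9 slopes on Col1a2 in either direction (25.0%, against 16.8% of all genes) became 5 without 403 and 5560 (13.9%, against 9.43%) and 3 within the 11 (8.33%, against 12.8%). Leaving out 1 lymphoma gave 5 to 13 such slopes (13.9% to 36.1%, against 12.6% to 17.7%). The 5 without 1467 or without 2949 were near the share of all genes when both directions were counted together.

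Among the 22 called genes, direction reversed, always without passing the threshold, for Wipi2 (-0.16), Map1lc3b (-0.21) and Gabarapl2 (-0.12) with the probe set of largest variance; for Ulk1 (-0.040), Pik3c3 (0.076), Atg14 (-0.030), Map1lc3a (-0.23), Nbr1 (-0.056), Tax1bp1 (-0.083) and Dram1 (-0.30) at no Col1a2 change; for Dram1 (-0.023) at no macrophage change; and for Ulk1 (-0.092), Pik3c3 (0.15), Atg14 (-0.073), Vmp1 (-0.035), Map1lc3a (-0.055), Gabarapl1 (-0.11), Gabarapl2 (-0.13), Nbr1 (-0.099), Tax1bp1 (-0.081) and Dram1 (-1.32) with both terms. The reversing probe sets of Wipi2, Map1lc3b and Gabarapl2 had mean levels of 5.40, 4.81 and 4.55, where the brightest were at 8.01, 11.01 and 9.58. Of the 14 genes not past the threshold, 6 also changed sign at no Col1a2 change (Atg9a, Wipi1, Atg4c, Atg4d, Atg12 and Calcoco1), 5 with both terms, 5 with arrays centred on their median, and 1 (Bnip3) without 1570 and 9584. The cause was not tested. The number of arrays, and signal over background for dim probe sets such as that of Dram1 in most untreated cultures, limit the precision.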
